A study of Drosophila melanogaster with 2 samples.

Results

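The 1256 summits described here lay in introns at a middle distance from transcription start sites. They were taken from the 5703 summits of a ChIP-seq peak list of Drosophila melanogaster on build dm6, and made up 22.0% of it (95% Wilson interval 21.0 to 23.1). A summit was a member when it lay 501 to 5000 bp from the nearest start site of any annotated gene, inside a gene and in no annotated exon. Position alone chose the members, so signal, sequence and host genes were not used. The experiment had 1 group of 2 biological replicates, numbered 2 and 3, from the line CG6854-GFP: whole prepupae of unknown age, both sexes pooled, with GFP fused to the C terminus of the protein of CG6854 and an antibody against GFP. The labels name CTPsyn as the target, and the reference annotation lists CG6854 among the earlier names of Ctps and of CG45071, a gene that overlaps it. What drives the fusion, how many animals were pooled and how many insertions were used is not stated in the labels. No group without the fusion was among the samples, so no comparison between groups could be made.

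CTP synthase makes CTP from UTP and can assemble into filaments called cytoophidia. Prepupae are at the onset of metamorphosis, which pulses of the steroid ecdysone set in motion. In flies, introns, and long first introns in particular, often hold enhancers, the sequences through which transcription factors act on a start site some way off. The irreproducible discovery rate (IDR) procedure judges peaks by how well their ranks repeat, and the list used here is the authors' optimal IDR list. A place in it does not mean that a summit was found in each replicate. The replicates' own lists both had a summit within 100 bp for 1159 of the 1256 members. Signal below means the authors' own score of a peak, whose scale is not stated. Median signals of location classes were compared within a list. Scores of the replicates come from separate lists and were also set side by side, as raw values. Higher or lower in a replicate therefore refers to the raw score alone, and not to a difference in binding.

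The sequence within 50 bp of the summit, for the 5 strongest members on the arms printed here, shows what lies at a strong intronic summit. They lay at chr2L:6612664-6612764 in intron 2 of CG11050, at chr2L:481010-481110 in intron 1 of ush, at chrX:4910343-4910443 in intron 1 of CG32772, at chr3L:15104862-15104962 in intron 1 of Ctps and at chr3R:11760990-11761090 in intron 1 of Lk6. All are read from the plus strand of RefSeq Release 6, the sequence of dm6.
CG11050: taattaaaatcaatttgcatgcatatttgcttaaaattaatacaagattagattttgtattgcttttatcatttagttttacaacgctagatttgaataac
ush: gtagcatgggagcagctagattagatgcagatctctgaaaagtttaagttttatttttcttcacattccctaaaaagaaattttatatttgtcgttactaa
CG32772: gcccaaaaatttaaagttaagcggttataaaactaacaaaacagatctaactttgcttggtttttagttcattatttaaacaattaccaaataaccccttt
Ctps: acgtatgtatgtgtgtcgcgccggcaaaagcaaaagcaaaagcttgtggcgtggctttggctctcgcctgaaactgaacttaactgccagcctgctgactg
Lk6: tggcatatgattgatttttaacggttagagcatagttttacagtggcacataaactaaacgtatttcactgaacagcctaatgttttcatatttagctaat
The window in CG11050 had a GC content of 21.8%, that in ush 30.7%, that in CG32772 27.7% and that in Lk6 31.7%, while the window in Ctps, in the locus of the fusion protein itself, had 52.5%.

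The second set holds the 5 strongest members with the motif GAGAGAG, the repeat bound by GAGA factor, within 50 bp of the summit. Capitals mark the motif on either strand. They lay in introns of Kdm2 (chr3R:9057680-9057780), mol (chr2L:14995757-14995857), Ssdp (chr3R:18197079-18197179), crol (chr2L:11806892-11806992) and tara (chr3R:16229263-16229363).
Kdm2: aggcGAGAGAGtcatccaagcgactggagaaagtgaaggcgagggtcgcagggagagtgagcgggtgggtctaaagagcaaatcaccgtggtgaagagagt
mol: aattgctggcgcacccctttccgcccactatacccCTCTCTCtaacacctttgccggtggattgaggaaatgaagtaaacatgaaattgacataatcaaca
Ssdp: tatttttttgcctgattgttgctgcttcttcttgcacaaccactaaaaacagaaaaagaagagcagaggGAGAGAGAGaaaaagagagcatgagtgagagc
crol: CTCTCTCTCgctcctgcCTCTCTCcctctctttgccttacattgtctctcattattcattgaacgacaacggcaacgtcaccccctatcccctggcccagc
tara: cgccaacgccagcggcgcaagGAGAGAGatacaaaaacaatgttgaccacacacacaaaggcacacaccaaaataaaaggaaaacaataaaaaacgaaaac
The repeat stood off centre in these windows, and their GC content ran from 40.6% in Ssdp to 56.4% in Kdm2.

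Members were denser than summits in the other introns and sparser than those at promoters. They numbered 51.2 per Mb (95% Poisson interval 48.4 to 54.1) of the 24.5 Mb that met the rule, called eligible intron below. Promoters, within 500 bp of a start site, held 161 per Mb, introns over 5000 bp away 22.6, intergenic sequence 19.1 and exons 6.81. These intervals cover counting error only, and the densities are a description with no test.

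The relaxed list pooled from both replicates held 30000 summits, of which 19.0% were in the IDR list. Of its 7440 summits that met the rule of members, 16.9% (16.0 to 17.7) were in the IDR list, against 28.8% at promoters, 14.9% in intergenic sequence and 12.5% in introns farther away. The median signal of members was 201.03 (quartiles 161.8 and 289.1), against 204.9 at promoters, 196.1 in intergenic sequence and 188.9 in introns farther away. The classes thus overlapped through most of their range. Members ran from 136.4 to 1790.4, 14 of them lay above 1000, and 23 were among the 100 strongest summits of the list. Peak widths ran from 108 to 2377 bp, and 664 members had a width of 430 bp, which was also the median of the whole list. The 1256 summits lay in 1245 regions.

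Within the span of the rule, members thinned out with distance. Their median distance was 1711.5 bp (quartiles 969 and 2987.5). The density was 75.1 per Mb (67.2 to 83.6) at 501 to 1000 bp, 44.8 (37.4 to 53.3) at 2001 to 2500 bp and 38.5 (29.6 to 49.1) at 4501 to 5000 bp. From 2501 bp on it stayed between 37.5 and 42.6 per Mb in each bin of 500 bp, so the decline lay in the first 2000 bp of the span. Beyond the rule, introns at 5001 to 6000 bp held 30.3 per Mb (24.3 to 37.3). The median signal was 202.6 to 216.3 in the 4 bins up to 2500 bp and 187.2 to 196.1 in the 5 bins beyond, so each nearer bin lay above each farther one, as a description. Just inside the near threshold, at 501 to 600 bp, 62 intronic summits had a median signal of 218.6, and just outside it, at 401 to 500 bp, 73 had 195.3. Just inside the far threshold, at 4901 to 5000 bp, 14 had a median of 182.1, and just outside it, at 5001 to 5100 bp, 10 had 196.8.

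First introns held most members. Of the 1256 members, 954 (76.0%, 73.5 to 78.2) lay in the first intron of a transcript, which made up 57.4% of eligible intron. The density was 67.7 per Mb in first introns and 28.9 in the others. First introns had the higher density in each distance bin: 90.4 against 40.5 per Mb at 501 to 1000 bp, and 52.3 against 26.1 at 4501 to 5000 bp. The 2 sides of the nearest start site were near even for the sequence they hold, with 36.0% of members upstream, where 34.5% of eligible intron lay. The intron around a member was long, with a median of 7578 bp (quartiles 3413 and 16335). The nearest start site belonged to a gene around the member in 965 cases (76.8%), and 89 members lay inside 2 or more genes, so the gene named below for a member is its host and not a shown target.

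**Figure D1:**
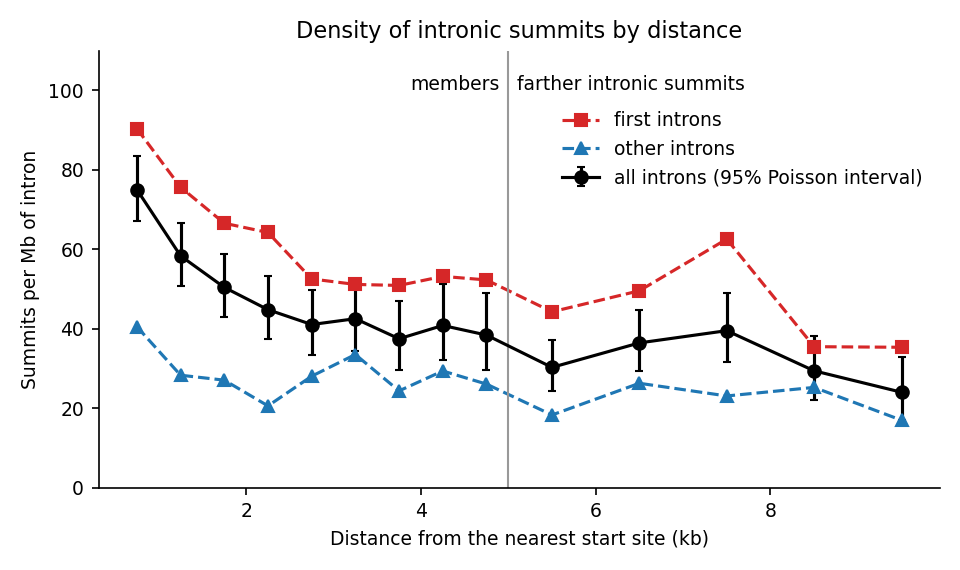
Intronic summits of the IDR list per Mb of intron (vertical axis) against the distance from the nearest start site in kb, with members left of the line at 5 kb. Density was 75.1 per Mb at 501 to 1000 bp and 38.5 at 4501 to 5000 bp, and first introns lay above the other introns in each bin. Bars are 95% Poisson intervals.

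By chromosome arm, density was highest on 2R, with 286 members and 65.5 per Mb (58.1 to 73.5). It was 50.6 on X, 49.98 on 3R, 49.4 on 3L and 44.6 on 2L (38.6 to 51.2), whose intervals overlap one another. Chromosome 4 held 1 member in 0.316 Mb, or 3.17 per Mb (0.0802 to 17.6). Members also stood close together: 280 (22.3%) had another member within 1000 bp and 410 (32.6%) another IDR summit of any kind.

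The strongest members outside the tagged locus repeated in both replicates. The member in CG11050 (chr2L:6612400-6612984) had a signal of 1790.4, with 628 in replicate 2 and 1152 in replicate 3, and lay 1027 bp downstream of a start of that gene in an intron of 140 bp. The member in ush (chr2L:480888-481308), which encodes a cofactor of GATA factors, had 1771, with 703 and 1051. It lay 1372 bp upstream of cbt, a zinc finger factor gene. In CG32772 (chrX:4910013-4910767) a summit had 1642, with 663 and 974, and in Lk6 (chr3R:11760850-11761282), the kinase of the initiation factor eIF4E, one had 1367, with 483 and 881. These 4 were all higher in replicate 3 than in replicate 2, and all exceeded the replicate medians of 96.9 and 115.3 by over 4 times.

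The tagged locus itself held 4 of the 20 strongest members. Ctps (chr3L:15097914-15113003) held them with signals of 1546, 1354, 1065 and 1043, and the one with 1354 also lay in CG45071 (chr3L:15105882-15110730). Replicate 2 gave 750.2, 781, 575 and 551, and replicate 3 gave 846, 570.1, 498 and 527. In 3 of these 4 the signal was lower in replicate 3, unlike the members above. Signal from extra copies of the locus carried by the fusion construct cannot be told apart from binding there.

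Next by signal stood CG9663 with 1099 (419.7 in replicate 2 and 683 in replicate 3), CG3726 with 1079 (435 and 639.8) and CG4496 with 1075 (369.7 and 686). Trl, the gene of GAGA factor, had 1054 in intron 2 (384 and 665). LPCAT, an acyltransferase of phospholipids, had 1048 (431 and 605), and for, the cGMP-dependent kinase gene foraging, had 1044 (405 and 636). Hr4 and Eip78C encode nuclear receptors of the ecdysone cascade. Hr4 had 938 (386 and 556), and Eip78C 901 (335 and 572). EDTP, a phosphoinositide phosphatase, had 906 (558 and 349), Kdm2, a histone demethylase, 899 (361 and 527), so, a homeodomain factor of the eye, 878 (437 and 439), and chif, a relative of the replication factor Dbf4, 868 (351 and 513). Of all 20, 16 lay higher in replicate 3, and EDTP and 3 summits of Ctps lay lower. The weakest member, in cue, had 136.4, with 47.8 in replicate 2 and 86.1 in replicate 3.

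Across all members the replicates ranked the summits alike only in part. Both replicates had a relaxed summit within 100 bp of 1159 members (92.3%), with Spearman's rho 0.56 and Pearson's r 0.63 on log2 signal over these summits, which share their libraries and are not independent. In the IDR list 62.8% of summits were among the 5703 strongest of both replicates, and of the members 777 (61.9%, 59.1 to 64.5) were, a share near that of the list. By signal quartile, members of the strongest quartile were so in 98.7% of cases and those of the weakest in 10.8%, as the list is derived from these replicates. Members matched in both replicates had the higher signal in replicate 3 in 822 of 1159 cases (70.9%, 68.2 to 73.5), against 57.4% (55.5 to 59.2) at promoters, 63.7% in introns farther away and 64.1% in intergenic sequence. The median ratio of replicate 3 to replicate 2 was 1.23 at members and 1.08 at promoters. Scale and depth of the 2 lists are not known, and why the classes differ in this ratio was not tested.

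Some members changed places strongly between replicates. A summit in intron 1 of Delta, the Notch ligand gene (chr3R:19321693-19322091), had 184 in replicate 2 and 53.4 in replicate 3, rank 143 and rank 1123 of the matched members. One shared by CG12912, CG46321 and Hr3, an ecdysone-induced nuclear receptor gene (chr2R:10213932-10214290), had 157 and 48.8. One in ken, a BTB-domain repressor gene (chr2R:23871661-23871804), had 53.7 and 213. Taking as many of the strongest summits from replicate 3 alone gave 1375 members, which lay within 100 bp of 1045 (83.2%) of those described here. Replicate 2 alone gave 1168, which lay near 925 (73.6%).

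**Figure D2:**
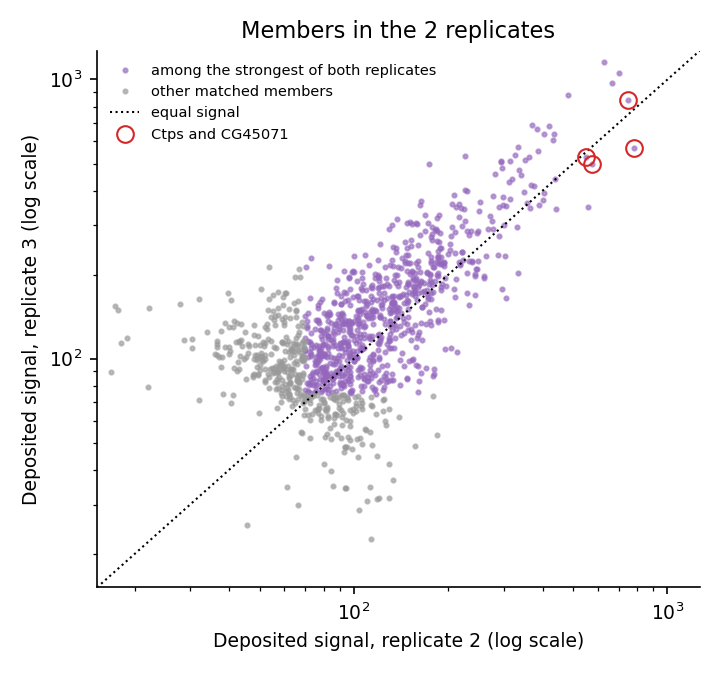
Deposited signal of the 1159 members matched in both replicates, replicate 2 on the horizontal and replicate 3 on the vertical axis, both logarithmic. Each point is 1 member and the dotted line marks equal signal. Most points, 822, lie above the line, while 3 of the 4 circled summits of Ctps and CG45071 lie below it.

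Base composition at members went with signal. In the strongest quartile (314 members, signal 289.2 to 1790.4) the sequence within 50 bp of the summit had a mean GC content of 37.6% ± 10.7 (SD over members), against 43.1% ± 10.3 in the weakest quartile. The quartiles between had 41.2% and 42.7%, and eligible intron cut into 243108 windows of the same length had 39.6%. Within 500 bp of the summit the quartiles were close, at 43.0% in the strongest and 41.7% in the weakest, so the low GC content was local. In the strongest quartile it averaged 37.9% and 37.4% in the 50 bp on either side of the summit, and 46.5% and 46.4% in the 50 bp bins that begin 100 bp away on the left and on the right. In the weakest quartile the same bins had 43.1% and 43.0% at the summit and 43.4% and 44.3% beside it. Windows under 30% GC numbered 87 of 314 (27.7%) in the strongest quartile, 40 of 314 (12.7%) in the weakest, and 16.2% of eligible intron.

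The pattern was seen again when each replicate's own list was ranked by its own signal. Members from replicate 2 alone had 38.7% in the strongest quartile and 43.5% in the weakest, and those from replicate 3 alone 37.6% and 42.2%. A lower GC content in the strongest quartile was shared by the other classes checked, with exonic summits not examined. Promoter summits had 41.0% in the strongest quartile and 45.4%, 45.8% and 45.6% in the following ones, so only the strongest stood apart. Distal intronic summits had 37.6% in the strongest quartile and 42.5% in the weakest, and intergenic ones 38.7% and 42.8%. Among the 20 strongest members the median was 33.2%, from 21.8% in CG11050 to 65.3% in Ctps, and 12 lay under 35%. Median peak widths by quartile, from the strongest on, were 288, 254.5, 430 and 430 bp. Whether width or base composition bears on the signal was not tested.

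**Figure D3:**
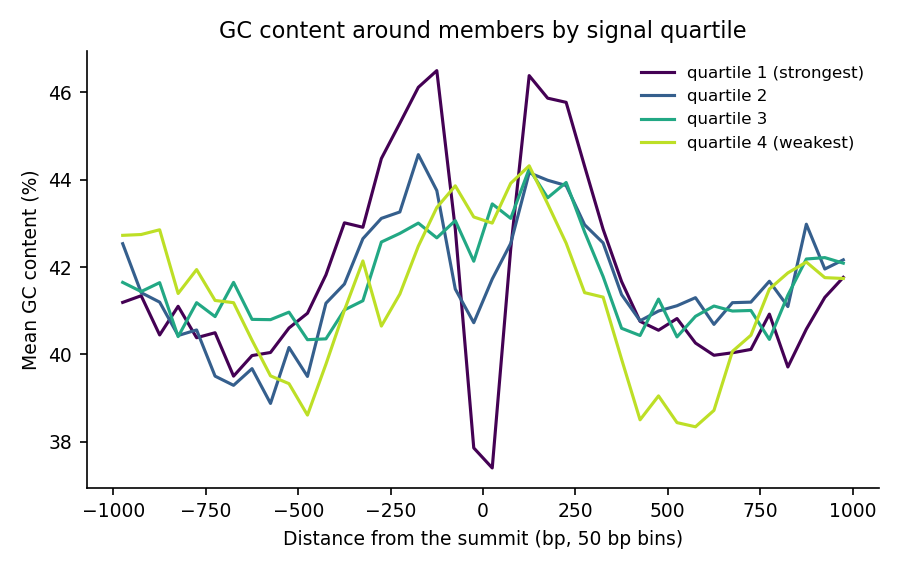
Mean GC content in percent (vertical axis) in bins of 50 bp against the distance from the summit in bp, with 1 line for each signal quartile of 314 members. The line of the strongest quartile drops to 37.4% at the summit between shoulders of 46.5% and 46.4%, and that of the weakest quartile stays near 43% there.

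The GAGA repeat was the motif that differed between the summits and their own flanks. The letters GAGAGAG, on either strand, lay within 50 bp of the summit at 70 members (5.57%, 4.43 to 6.98) and within 50 bp of the point 500 bp to its left at 33 (2.63%, 1.88 to 3.67). The summit alone held it at 69 members and the flank alone at 32, a difference past the threshold in the two-sided exact McNemar test (p adjusted by the Benjamini-Hochberg method over 22 motifs 0.00651). The motifs were chosen with earlier results of these data known, so this was not a blind test. Over all IDR windows the share was 6.21%, so members did not stand above the list, and 1.45% of windows of eligible intron held it. Exonic summits, 180 in number, had 11.7%, promoter summits 7.00%, distal intronic ones 5.32% and intergenic ones 3.44%. The same exact test was not passed for the stronger part of the list (adjusted p = 0.486) or within 25 bp of the summit (adjusted p = 0.436).

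The repeat was spread over about 200 bp on either side. In bins of 100 bp it lay at 6.37% to 7.32% of members within 200 bp of the summit and at 2.23% to 2.87% between 400 and 700 bp away on either side. The GAGA share was 4.14% in the strongest signal quartile and 6.37% in the weakest, and members with the repeat had a median signal of 187.7, against 203.9 for those without. Replicate medians were 96.8 and 103 with it and 96.9 and 116 without it.

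**Figure D4:**
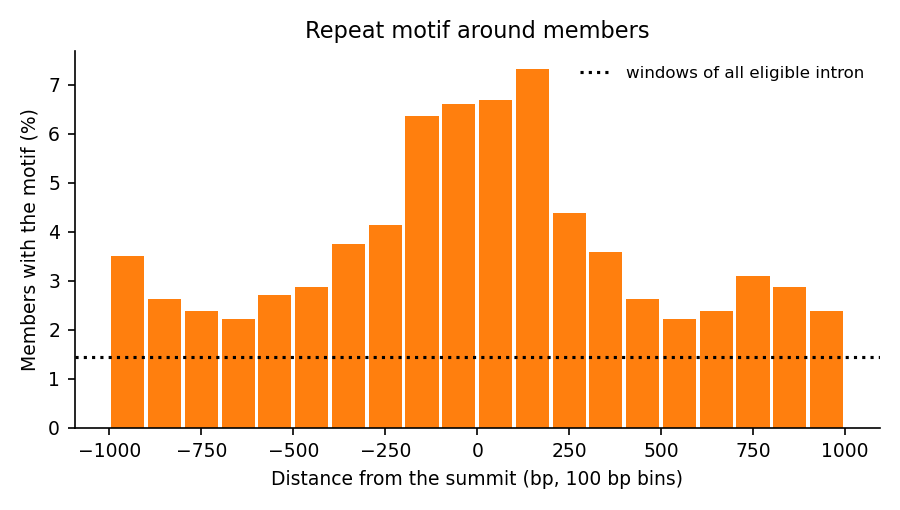
Share of the 1256 members in percent (vertical axis) that hold the GAGA repeat in each bin of 100 bp, against the distance from the summit in bp. The 4 bins within 200 bp hold 6.37% to 7.32%, and the dotted line at 1.45% marks windows of like length over all eligible intron.

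Of the 22 motifs 1 passed the test (4.55%). The nearest of the others were TAATTA, a core of many homeodomain sites, at 5.49% of summits and 7.96% of flanks (adjusted p 0.158, exact McNemar test), and AACCGGTT, the palindrome of Grainyhead, at 9 summits and 1 flank (adjusted p 0.158). CACACACA lay at 5.02% of summits and 3.66% of flanks (adjusted p 0.407). The E-box CACGTG (1.04% and 1.59%), the Zelda site CAGGTAG (0.478% and 0.796%) and the GATA site AGATAA (5.41% and 4.78%) did not pass either. The promoter elements TATCGATA and GGTCACAC each lay at 1 summit and 1 flank. A further search ranked, after values were seen, all 7-mers found at 38 or more members by their ratio to eligible intron. Purine-rich relatives of the repeat led it: GAGCGAG lay at 5.33% of members and 1.00% of eligible windows, GAGAGCG at 4.94% and 1.02%, and GAGCGGG at 3.26% and 0.692%. Any of the first 10 lay at 19.4% of members (17.3 to 21.7), at 11.2% of flanks and at 6.80% of eligible windows. As they were chosen on the members, these shares are a description. The classes not used to choose them had 21.1% at promoters, 15.8% in introns farther away and 12.2% in intergenic sequence.

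Members were spread over many genes, with a few long ones holding clusters. They lay in 764 protein-coding genes, and of the 9101 such genes with eligible intron 8.39% held a member. Of these hosts 481 held 1 member, 159 held 2 and 30 held 5 or more. The share was larger where more length was on offer: 0.567% of genes with under 1000 bp of eligible intron held a member, 15.5% of those with 2000 to 4999 bp, and 37.7% of those with 10000 bp or more.

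Most host genes also had a summit at a promoter. Of the 764 hosts, 515 (67.4%, 64.0 to 70.6) also had a promoter summit, against 1750 of the 8337 genes with eligible intron and no member (21.0%, 20.1 to 21.9), and 24.9% of both together. By length of eligible intron, the share was 37.5% of hosts against 17.2% of the others under 1000 bp, 50% against 29.3% at 1000 to 1999 bp, 67.5% against 28.0% at 2000 to 4999 bp, 64.6% against 29.3% at 5000 to 9999 bp and 77.5% against 29.02% at 10000 bp or more. Hosts were higher in each of the 5 length classes, as a description with no test. Of the members, 962 (76.6%, 74.2 to 78.9) had a host with a promoter summit, 83.4% in the strongest signal quartile and 70.7% in the weakest.

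The 10 genes with the most members, where Egfr was taken from 4 genes with 7 each by its summed signal, held 93 of them (7.40%). First was shn, a zinc finger repressor gene that acts downstream of Dpp, with 14 members of median signal 246.1 (range 143.9 to 493.7). Of these, 11 were matched in both replicates, with medians of 148 in replicate 2 and 162 in replicate 3. Eip75B, a nuclear receptor gene induced early by ecdysone, followed with 13 of median 181.4 (82.9 and 120.03 in the 10 matched in both), and CG1677 with 10 of median 212.5 (107 and 148 in 9). The coactivator gene of Notch, mam, held 9 of median 241.8 (97.0 and 117 in all 9). Tlk, a kinase of chromatin assembly, held 8 with a strongest of 808.8, tna 8 with 729.6, and tou 8 with 385.9. The BTB factor gene psq and the corepressor gene sbb held 8 each with strongest signals of 470.7 and 374.7. Egfr, the EGF receptor gene, held 7 with a strongest of 794.6. All 10 had a promoter summit as well, and their density per Mb of their own eligible intron ran from 172.0 in CG1677 to 405 in shn.

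Among 26 lists of genes, those of hormone and signalling pathways are given first. Their shares stand beside the background of 8.39% of genes and their densities beside the 51.2 per Mb of all eligible intron. Among genes with at least 2000 bp of eligible intron the background was 24.6%. At that length ecdysteroid synthesis (1 of 5 genes, 20%), patterning and selector (14 of 72, 19.4%) and lipid genes (3 of 16, 18.75%) lay below it. So did muscle (2 of 13, 15.4%), neuronal (1 of 35, 2.86%) and glycolysis genes (0 of 2). The other lists lay above it. Several rest on few genes, such as Hedgehog (2 of 6), insulator (2 of 3), and cell death and NF-kappaB (3 of 9 each). The side on which such small lists lie can hang on 1 gene. The median gene with eligible intron had 457 bp of it, while many listed genes had far more, so share and density are given together, as descriptions with no test. The intervals treat members as independent, though some lists draw many from 1 gene. For Notch 9 of 13 members lay in mam, and for Dpp 14 of 28 in shn. Diap1 held 6 of 9 for cell death and autophagy and 6 of 13 for Hippo. Some genes, such as sgg, foxo, tara and Diap1, stand in more than 1 list. For such lists the interval can be too narrow. In the ecdysone response 14 of 28 genes held a member (137.9 per Mb, interval 100.98 to 183.98, median eligible length 8066 bp). Hr4 held 5 and Eip78C 2, with strongest signals of 938 and 901, and ImpL2, which binds insulin-like peptides, held 1 with 409.6 (193 in replicate 2 and 222 in replicate 3). Of the 14 hosts 13 had a promoter summit, as did 9 of the 14 without a member. For ecdysteroid synthesis 1 of 9 did (90.3 per Mb, 18.6 to 263.8), the zinc finger gene mld, with 3 members and a strongest of 268.4 (144 and 135).

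In the EGF receptor pathway 11 of 22 genes held a member (191.0 per Mb, 128.8 to 272.6). Its receptor gene Egfr had a strongest of 794.6 (403 in replicate 2 and 392 in replicate 3), the ETS factor gene pnt 539.3 (302 and 234), and edl, which antagonises ETS factors, 505.0 (232 and 277). In the Dpp pathway it was 8 of 16 (211.9 per Mb, 140.8 to 306.3). The type II receptor gene wit had 715.8 (282 and 458), the type I receptor gene tkv 532.6 (225 and 312), and shn 493.7 (206 and 296). In both pathways receptors thus stood first by signal.

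For JNK 7 of 14 genes held a member (155.2 per Mb, 80.2 to 271.1), led by the kinase gene msn with 292.5 (93.0 and 206), raw with 216.1 (86.2 and 159) and the Fos gene kay with 212.3 (70.9 and 136). For Wingless it was 10 of 23 (101.5 per Mb, 63.6 to 153.7). Notum, which inactivates the ligand, had 661.1 (278 and 382), the coreceptor gene arr 358.0 (175 and 192), and sgg, the GSK3 kinase gene, 351.6 (154 and 206). For Notch it was 5 of 18 (106.4 per Mb, 56.7 to 182.0), with neur, a ligase that acts on the ligand, at 636.1 (291 and 349), mam at 453.6 (259 and 195) and the inhibitor gene numb at 187.5 (125 and 71.7). The Notch list does not count Delta, whose symbol was not matched to the annotation and which held the member given above.

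For insulin and TOR 8 of 23 genes held a member (133.0 per Mb, 72.7 to 223.1), with the transcription factor gene foxo at 696.6 (366 in replicate 2 and 346 in replicate 3) and sima, the fly HIF-alpha gene, at 351.5 (141 and 211). For Hippo it was 6 of 18 (124.5 per Mb, 66.3 to 212.9). Diap1, an inhibitor of caspases, held 6 members with a strongest of 496.7 (210.4 and 283), the upstream regulator gene ex had 466.2 (177 and 295), and crb 384.1 (149 and 234). The Hippo list does not count dachs, whose symbol was not matched either and which held a member of 296.6 (137 and 153). The symbol Tor was likewise not matched, so the insulin and TOR counts leave it out. For JAK-STAT it was 4 of 12 (97.1 per Mb, 44.4 to 184.3), with ken at 254.2, Stat92E, the STAT factor gene, at 233.6 (60.3 and 172) and the phosphatase gene Ptp61F at 175.6 (116 in replicate 3, unmatched in replicate 2). For Hedgehog it was 2 of 11 (124.6 per Mb, 34.0 to 319.1), the receptor gene ptc with 3 members and a strongest of 382.4 (133 and 251) and slmb with 175.1 (78.2 and 99.9). The intervals of JAK-STAT and Hedgehog include 51.2 per Mb.

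Chromatin factors came next. Of the GAGA-binding and BTB factor genes 10 of 14 held a member (174.3 per Mb, 113.9 to 255.4), and of Polycomb and trithorax genes 9 of 36 (195.0 per Mb, 130.6 to 280.1). Trl, with 3 members, stands in both lists and in that of insulator proteins, as does psq, with a strongest of 470.7 (148 in replicate 2 and 307 in replicate 3), in the first 2. The H3K4 methyltransferase gene trx had 464.4 (184 and 287), and mod(mdg4), a BTB insulator cofactor, 258.6 (88.0 and 172). Insulator genes held a member in 2 of 13 cases (249.4 per Mb, 68.0 to 638.5), Trl and mod(mdg4). Members in the gene of GAGA factor and GAGA repeats at members are separate measurements, and no link between them was tested.

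Growth and cell cycle genes held a member in 7 of 26 cases (216.6 per Mb, 135.8 to 328.0). The phosphatase gene stg, the fly Cdc25, had 733.8 (348 in replicate 2 and 394 in replicate 3) in 863 bp of eligible intron, tara 554.2 (290 and 276) and brat 453.4 (203 and 245). Of patterning and selector factor genes 14 of 88 did (58.5 per Mb, 41.8 to 79.6), led by ush, so and tara, and of actomyosin and adhesion genes 16 of 57 (62.2 per Mb, 40.6 to 91.1). The junction gene pyd had 464.1 (237 and 223), the myosin II heavy chain gene zip 452.2 (210.4 and 238) and the integrin gene mys 449.9 (244 and 201.2). The densities of these last 2 lists lay close to that of all eligible intron.

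Of nucleotide synthesis genes 4 of 18 held a member (192.0 per Mb, 70.5 to 418.0), of which Ctps and CG45071 are the tagged locus, and Prps, which makes phosphoribosyl pyrophosphate, had 300.8 (117 in replicate 2 and 195 in replicate 3). Of lipid genes 5 of 27 did (84.8 per Mb, 36.6 to 167.0), with Lpin at 227.8 (77.0 and 152), SREBP at 221.9 (98.4 in replicate 2, unmatched in replicate 3) and the lipase gene bmm at 196.0 (55.7 and 138). Of glycolysis genes 0 of 11 did (95% Wilson interval 0 to 25.9%), with 671 bp of eligible intron in the median gene, and 5 of the 11 had a promoter summit. Of stress genes 5 of 22 did (131.7 per Mb, 60.2 to 250.004), with cnc, the fly Nrf2, at 328.6 (117 and 202) and the chaperone gene Hsp83 at 278.1 (70.4 and 214). The intervals of density include 51.2 per Mb for lipid genes and glycolysis (0 to 244.7) and lie above it for nucleotide synthesis and stress genes. The tagged locus gave 4 of the 6 members behind the nucleotide synthesis density, and its interval without that locus was not computed. Without the tagged locus 2 nucleotide synthesis genes held a member.

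Of cell death and autophagy genes 3 of 25 held a member (191.0 per Mb, 87.3 to 362.6): Diap1, the kinase gene Atg1 with 251.8 (103 in replicate 2 and 150 in replicate 3) and the JNK kinase gene hep with 190.4 (97.3 and 102). Of clock genes 4 of 15 did (101.8 per Mb, 50.8 to 182.2), with the repressor gene vri holding 6 and a strongest of 371.0 (160 and 224) and dco, a casein kinase gene, 289.2 (222 in replicate 3, unmatched in replicate 2). Of NF-kappaB genes 3 of 22 did (91.5 per Mb, 24.9 to 234.3), PGRP-LB with 192.7 (78.3 and 126), the inhibitor gene cact with 166.4 (67.9 and 100.1) and the Rel factor gene Dif with 147.8 (66.7 and 87.1). These signals lay below the median of all members for all of the NF-kappaB genes. In replicate 2 alone 1 NF-kappaB gene, 5 cell death genes and 4 Hedgehog genes held a member. The summit given for Atg1 also lay in CG42709, whose start site was the nearest.

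The listed neuronal genes held few members. Of 38 genes with eligible intron in the list of neuronal channels and synapses, 1 held a member. It was elav, the gene of an RNA-binding protein of neurons and not of a channel, at 231.7 (91.2 in replicate 2 and 139 in replicate 3). The 0.377 Mb of eligible intron in this list held 2.65 members per Mb (0.067 to 14.8). Yet the median gene had 7644 bp of it, a length like that of the ecdysone genes. Of the 37 without a member 6 had a promoter summit. In replicate 2 alone 2 of the 38 held a member. Muscle genes held a member in 2 of 22 cases and 26.9 per Mb (5.54 to 78.6), Mef2 with 298.9 (132 and 168) and Actn with 269.4 (180 and 91.9). The muscle share of 9.09% lay near the background of 8.39%, and the muscle interval includes 51.2 per Mb. In whole animals fewer cells of a type and less signal per cell cannot be told apart.

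**Figure D5:**
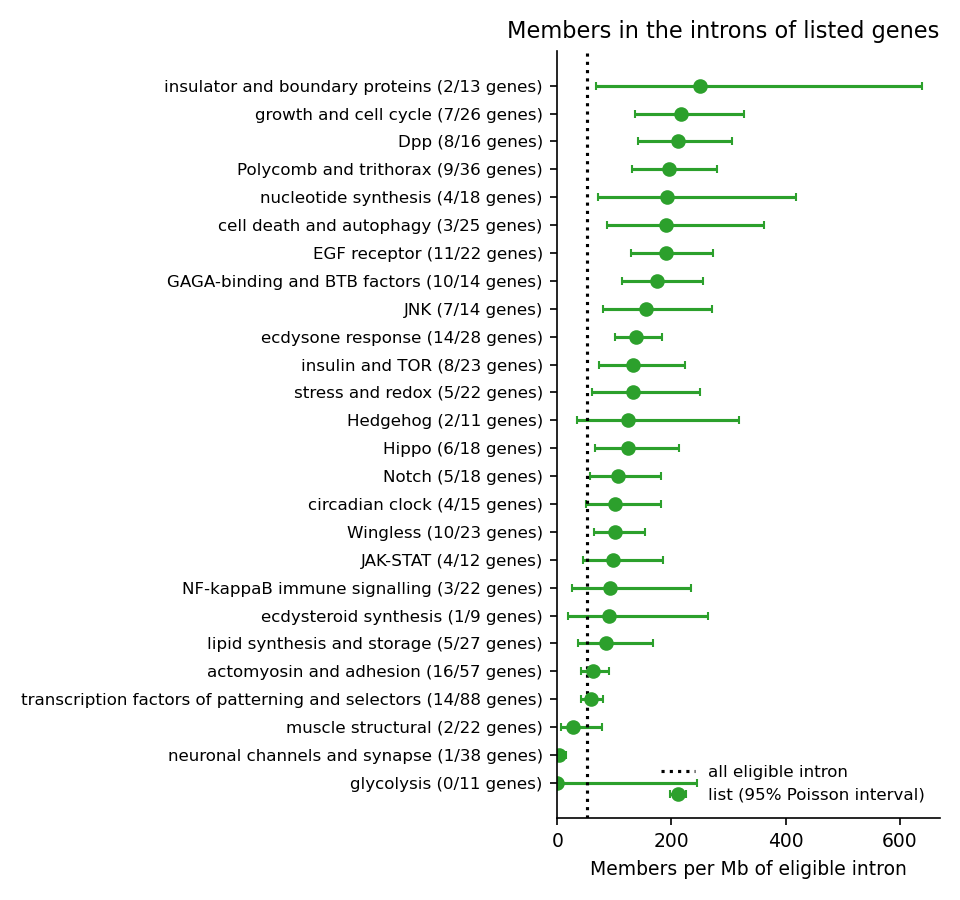
Members per Mb of eligible intron (horizontal axis) in the genes of each of 26 lists, with 95% Poisson intervals and the number of genes with a member of those with eligible intron beside each name. The dotted line marks 51.2 per Mb over all eligible intron. Signalling lists such as Dpp and EGF receptor lie to its right, neuronal genes at 2.65 to its left, and lists with little intron have wide intervals.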

How the data were processed

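The authors deposited narrowPeak lists on dm6 for replicate 2, replicate 3, both pooled, and the peaks that passed IDR. Per the deposited notes, the first 3 are relaxed calls made against an alignment of control DNA, and the IDR list was derived from them. Which aligner and caller were used is not stated there. The signal of each peak is the authors' score. The deposited lists also give the summit offset in bp, another value used for position alone. Depth is unknown, and each relaxed list ends at 30000 peaks. Lists on dm3 were not used here.

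Summits on arms X, 2L, 2R, 3L and 3R and chromosome 4 (18 of replicate 2 lay elsewhere and were left out) were placed on Ensembl release 115 without transposable elements (18164 genes, 23581 start sites), and sequence came from RefSeq Release 6. Of 715 listed symbols 700 were found, 31 through a RefSeq synonym. Those not found, among them Tor, phm and torso, are left out of the counts. Found were 28 of 29 symbols for insulin and TOR, 11 of 13 for ecdysteroid synthesis and 16 of 17 for glycolysis. Replicate summits were matched within 100 bp. Motifs were compared by exact McNemar tests with Benjamini-Hochberg adjustment at 0.05, checked on simulated data. All else is description, with 95% Wilson or exact Poisson intervals that cover counting error only. Named are the 20 strongest members, the 10 genes with most members, up to 3 genes per list, the 3 members of largest rank difference, the weakest member and the tagged genes. Members, lists and motifs were chosen with earlier results of these data known. Alternatives were each replicate alone, the stronger part of the list, other start sites, windows, flanks and match distances. Chosen after seeing values were the list without the tagged locus, the flank on the other side, the 7-mers and the GC contents. Python 3.11.15, NumPy 2.4.6, pandas 2.3.3 and SciPy 1.17.1 were used.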

Additional observations from a re-analysis of the deposited data

How the results depend on the processing

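No paired analysis was possible because there was 1 group. With each replicate alone, the share of members ran from 20.5% to 24.1%, the density from 47.6 to 56.0 per Mb, members whose host has a promoter summit from 71.3% to 79.1%, genes with a member from 7.87% to 9.12%, and the GAGA share from 4.95% to 5.91%, with adjusted p 0.00935 and 0.00269 in the exact McNemar test. In the stronger part of the list 632 members remained at 25.7 per Mb with a median signal of 288.9. Of these 78.3% lay in a first intron and 60.8% in a host with a promoter summit, 5.18% of genes held a member, and the GAGA share was 4.27% without passing the test. By construction this setting lowers counts. With protein-coding start sites alone the share of members was 20.8%. With 1 start site per gene density was 60.3 per Mb and the first intron share 79.5%. Promoter windows of 250 and 1000 bp gave 71.5% and 86.2% of members whose host has a promoter summit. Among genes with at least 2000 bp of eligible intron 24.6% held a member. Matching within 50 and 200 bp gave 50% and 64.9% of members among the strongest of both replicates. Within 25 bp of the summit the GAGA share was 2.87% and missed the threshold, while windows of 100 bp on either side and both other flanks kept the call (adjusted p 7.76e-07 to 0.0261). The causes were not tested. In the longer windows the CA repeat, Grainyhead and homeodomain motifs passed as well, and in replicate 2 alone the last 2 did. GC content in the strongest quartile minus that in the weakest ran from -5.65 to -3.34 percentage points under the 8 alternatives tried. Without the tagged locus 1252 members remained. Depth is unknown, so weak summits near the list's threshold limit these counts.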
